A study of Mus musculus with 8 samples.

Results

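The miRNAs described here lie in introns of genes of energy and lipid metabolism: miR-103-3p and miR-107-3p, which are transcribed with genes of pantothenate kinases (Pank), both arms of miR-33, from the cholesterol regulator Srebf2, and both arms of miR-378a, from the coactivator gene Ppargc1b. They are defined by name, with no threshold on their values, and make up 6 of the 1966 mature miRNA names in the deposited table. In the table they are named mmu-miR-103-3p, mmu-miR-107-3p, mmu-miR-33-5p, mmu-miR-33-3p, mmu-miR-378a-5p and mmu-miR-378a-3p. All 6 names had at least 1 count, as did 1003 names in total. The study cultured primary articular chondrocytes, the cells of joint cartilage, from femoral heads of wild-type mice that were 3 weeks old. The cells received vehicle (n = 4 libraries) or the proinflammatory cytokine interleukin-1β (IL-1β) at 1 ng/ml (n = 4 libraries) for 24 h, and small RNA was sequenced. Strain was not given in the sources used here, and neither was whether the 4 libraries of a group came from separate animals, so p-values measure only the spread between these libraries, which may be technical.

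The strand of a miRNA is released from either arm of its hairpin (5p or 3p), and bases 2 to 8 of the mature strand, its seed, pair with target mRNAs. Pantothenate kinases control the synthesis of coenzyme A, and miR-103 and miR-107 are known as regulators of insulin sensitivity. Srebf2 encodes SREBP2, a transcription factor that drives cholesterol synthesis and uptake, and miR-33 is known to repress the cholesterol exporter Abca1. Ppargc1b encodes PGC-1β, a coactivator of mitochondrial genes, and miR-378a is known from the control of mitochondrial metabolism and fatty acid use. An intronic miRNA on the strand of its host is usually transcribed together with it, although its abundance also depends on processing and decay. The mRNAs of the host genes were not analysed here.

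All hairpins lay in introns of their hosts and on the same strand (GENCODE vM21, build GRCm38, which is the mm10 assembly that the study aligned to). The mature miR-103-3p is encoded at both Mir103-1 (chromosome 11, 35782396 to 35782481, plus strand) and Mir103-2 (chromosome 2, 131288052 to 131288137, plus strand), which lay in intron 5 of 6 of Pank3 and of Pank2, respectively. Mir107 (chromosome 19, 34820687 to 34820773, minus strand) lay in intron 5 of 6 of Pank1. The position within the host was thus the same in all 3 Pank genes. Mir33 (chromosome 15, 82198122 to 82198190, plus strand) lay in intron 16 of 18 of Srebf2, and Mir378a in intron 1 of 11 of Ppargc1b. Introns were numbered in the principal transcripts, and no annotated transcript of a host had an exon that overlapped its hairpin.

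Mature sequences were taken from RefSeq (GRCm38.p6), where 4 of the 6 names matched. They are shown because the shared seed of miR-103-3p and miR-107-3p, and the single base that separates them, decide how far their counts can be told apart. Sequences are written 5′ to 3′ with the seed in capitals.
miR-103-3p: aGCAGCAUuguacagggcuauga
miR-107-3p: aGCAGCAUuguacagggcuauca
miR-33-5p: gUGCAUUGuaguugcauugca
miR-33-3p: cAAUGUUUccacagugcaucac

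Both loci of miR-103-3p gave the same mature sequence of 23 nt, so that its counts cannot be assigned to Mir103-1 or Mir103-2. From miR-103-3p to miR-107-3p the only difference was G22C, with positions counted from 1 at the 5′ end. No other mouse miRNA in RefSeq had this seed. The arms of miR-33 had different seeds. The opposite arms, miR-103-1-5p, miR-103-2-5p and miR-107-5p, had 0 counts in all 8 libraries, as had the family members miR-378b and miR-378c. A count of 0 allowed up to 1.87 normalized CPM (3 counts) in the deepest library and 4.80 in the one with fewest counts. From miR-103-1-5p to miR-103-2-5p the only difference was G1A, and from miR-103-2-5p to miR-107-5p it was C16U. Reads that fit several of these loci may not have been counted, and the limits do not cover such a loss.

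The libraries held 616475 to 1568367 counts, and values are given as normalized CPM, which is counts per 1000000 of a library total scaled for composition. A single count was worth 0.625 to 1.60 normalized CPM. The 4 chondrocyte miRNAs checked (the arms of miR-140 and miR-455) were all detected and took 15.6% to 16.8% of counts with vehicle and 12.4% to 15.3% with IL-1β, ranges that did not overlap. Most of these counts were of miR-140-3p, with a mean of 149130 per library (log2 fold change -0.15, edgeR adjusted p = 0.546). In normalized CPM the groups overlapped for miR-140-3p, miR-140-5p and miR-455-5p. They did not for miR-455-3p (log2 fold change -0.35, edgeR adjusted p = 0.0691), as for 7.62% of all tested miRNAs. The part of the difference in share in the values below was not tested. All 7 muscle miRNAs checked were at 0, and none of the lists for haematopoietic, endothelial, epithelial, and liver or serum cells took more than 0.0109% of counts in a library.

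In cultured chondrocytes, miR-103-3p had the highest normalized CPM of the 6 miRNAs and did not change detectably with IL-1β. In vehicle replicates 1 to 4 its level was 162, 194, 182 and 164 normalized CPM. With IL-1β, replicates 1 to 4 were at 162, 146, 194 and 174. The groups overlapped over most of their range, and both the lowest and the highest library belonged to the IL-1β group. The mean was 175 ± 15.1 normalized CPM with vehicle and 169 ± 20.5 after IL-1β (SD, n = 4). The log2 fold change of IL-1β over vehicle was -0.07 (SE 0.116, 95% interval -0.31 to 0.17), with an adjusted p of 0.871 (edgeR quasi-likelihood test, Benjamini-Hochberg over 564 miRNAs). On the linear scale the interval ran from 0.807-fold to 1.12-fold. With 101 to 291 counts per library, counting alone would give SDs of 13.2 and 14.6 normalized CPM, and the observed spread was 1.14 and 1.40 times as large. Among all 1966 names miR-103-3p ranked 131st by mean abundance.

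miR-107-3p, which differs from miR-103-3p at a single base, had few counts. Its levels in vehicle replicates 1 to 4 were 6.36, 3.34, 1.87 and 1.56 normalized CPM. With IL-1β, replicates 1 to 4 were at 3.20, 5.90, 1.46 and 1.25. These values stood for 1 to 7 counts per library, and the groups overlapped. The mean was 3.28 ± 2.19 normalized CPM with vehicle and 2.95 ± 2.15 after IL-1β (SD, n = 4). The log2 fold change was 0.011 (SE 0.584, 95% interval -1.19 to 1.22, edgeR adjusted p = 0.993), whereas the means differed in the other direction. A change of 2-fold in either direction was within the interval. The estimate turned negative when any of 3 libraries was left out, at -0.76 without IL-1β replicate 2, -0.24 without vehicle replicate 3 and -0.13 without vehicle replicate 4.

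**Figure D1:**
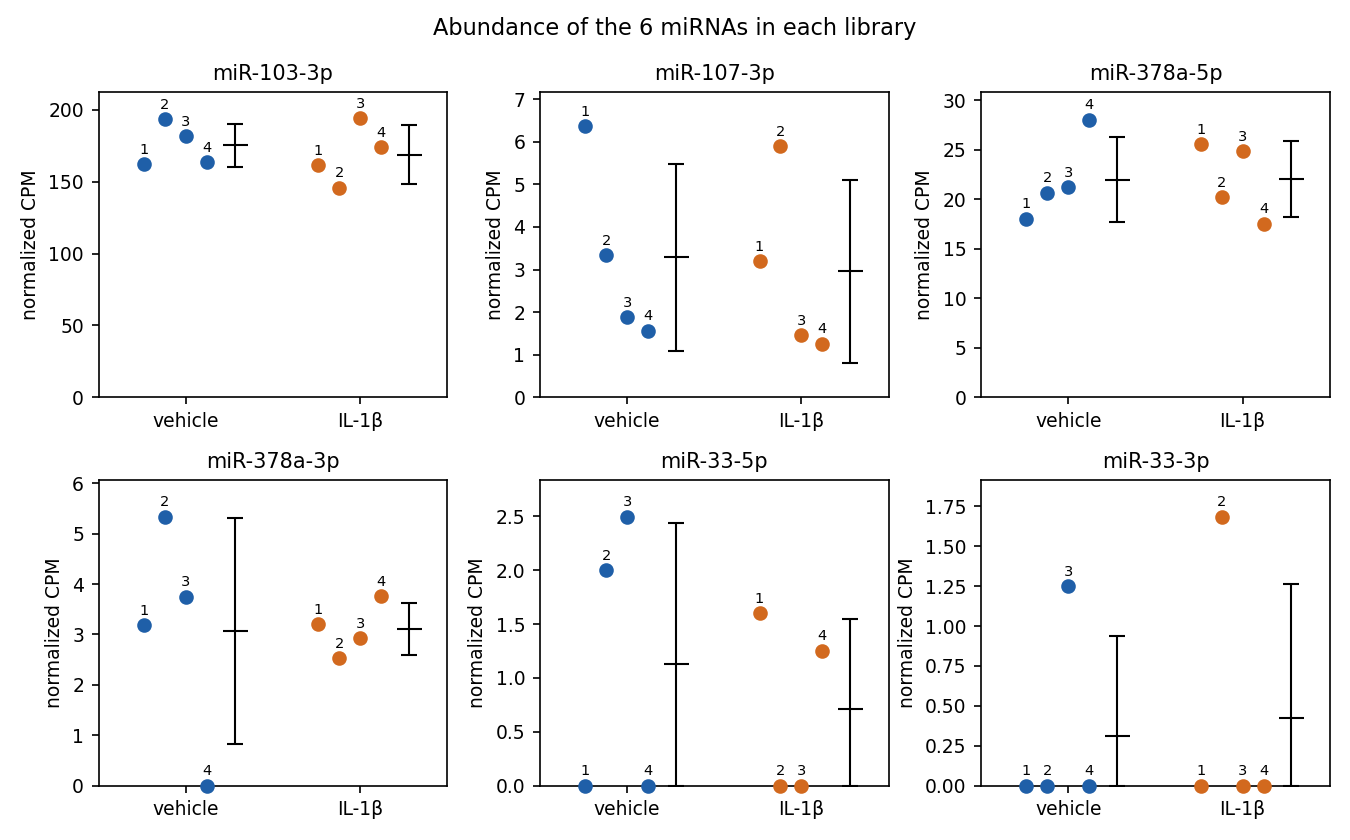
Normalized CPM (linear axes from 0, a separate scale in each panel) of the 6 miRNAs in each library, with replicate numbers beside the points and the mean ± SD (n = 4) to the right, where bars that would pass below 0 end there. The groups overlap in all 6 panels, and both arms of miR-33 are at 0 in several libraries.

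Because the pair shares its seed, the composition of the pair was compared as well. miR-103-3p took 98.1% ± 1.32 of the counts of both with vehicle and 98.2% ± 1.49 after IL-1β (SD, n = 4). The difference of 0.035 percentage points did not exceed the variation among libraries (two-sided exact permutation p = 0.943, adjusted over 3 such tests 0.943). The lowest shares were 96.2% in vehicle replicate 1 (95% exact binomial interval 92.0% to 98.6%) and 96.1% in IL-1β replicate 2 (92.2% to 98.4%). Over all 8 libraries 1385 counts were assigned to miR-103-3p and 26 to miR-107-3p. How reads with several placements were counted was not stated. Reads that end before base 22 are the same for both miRNAs and cannot be assigned to either. Reads of the full mature miR-103-3p align to 2 loci, and the table listed it at 23 nt, the length of a single locus, as for 31 of the 53 names with several loci. The other 22 were listed with summed lengths. The levels of miR-103-3p and miR-107-3p, and their ratio, may therefore be off by an amount that these counts cannot show. The comparison of groups used the same counting in every library.

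The arms of miR-378a received unequal numbers of counts in both groups. miR-378a-5p was at 18.0, 20.7, 21.2 and 28.0 normalized CPM in vehicle replicates 1 to 4. The IL-1β values of replicates 1 to 4 were 25.6, 20.2, 24.8 and 17.5. Both the highest vehicle library and the lowest IL-1β library were replicate 4, and the ranges overlapped. The means were 22.0 ± 4.26 and 22.1 ± 3.83 normalized CPM (SD, n = 4). The log2 fold change was 0.013 (SE 0.238, 95% interval -0.48 to 0.50, edgeR adjusted p = 0.992). The interval spanned 0.718-fold to 1.42-fold. The spread was at or below that of counting alone, at 0.934 and 0.726 times the SD expected from 14 to 34 counts per library.

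miR-378a-3p had 27 counts in all. Its levels in vehicle replicates 1 to 4 were 3.18, 5.34, 3.75 and 0 normalized CPM. With IL-1β, replicates 1 to 4 were at 3.20, 2.53, 2.92 and 3.76. Vehicle replicate 4, with 0 counts, allowed up to 4.67 normalized CPM and thus did not stand apart at this depth. The means were 3.07 ± 2.24 and 3.10 ± 0.518 normalized CPM (SD, n = 4), and the edgeR log2 fold change was -0.20 (SE 0.631, 95% interval -1.51 to 1.10, adjusted p = 0.963). The means differed in the other direction, by less than the counting error. From pooled counts the ratio of IL-1β to vehicle was 0.837 (95% counting interval 0.342 to 1.93).

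In all 8 libraries the 5p arm of miR-378a exceeded the 3p arm. Of the counts of both arms, the 3p arm took 13.6% over all libraries (95% exact binomial interval 9.18% to 19.2%), 14.5% in the vehicle group (8.70% to 22.2%) and 12.3% in the IL-1β group (6.08% to 21.5%). On the scale of log2(3p/5p), with 0.5 added to each count, the means were -2.96 ± 1.52 and -2.60 ± 0.366 (SD, n = 4). The difference of 0.36 did not exceed the variation among libraries (two-sided exact permutation p = 0.943, adjusted over 3 tests 0.943), and it was -0.39 without vehicle replicate 4 (exact permutation p = 0.143). Ligation and amplification favor some sequences over others, and reads of the 3p arm may be shared with relatives of similar sequence, so the counts of the arms are not their molar ratio. The relative miR-378d had 46 counts, more than the 3p arm of miR-378a, at 7.48 ± 3.65 normalized CPM with vehicle and 4.45 ± 1.02 with IL-1β (SD over 4 libraries). It was not called, with -0.56 on the log2 scale (SE 0.471, edgeR adjusted p = 0.753).

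**Figure D2:**
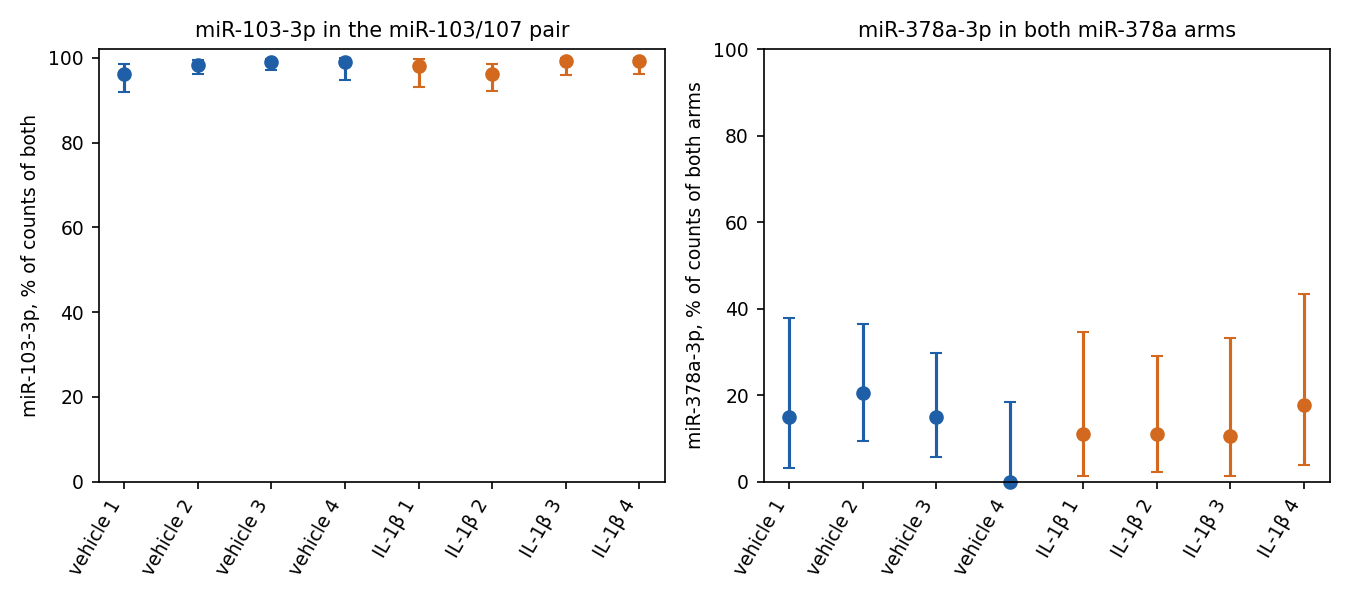
Share (%) of miR-103-3p in the counts of miR-103-3p plus miR-107-3p (left) and of miR-378a-3p in the counts of both miR-378a arms (right) in each library, with 95% exact binomial intervals that cover counting error only. The shares of miR-103-3p lie between 96.1% and 99.3% and those of miR-378a-3p between 0% and 20.5%, with vehicle (blue) and IL-1β (orange) libraries interspersed.

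miR-33, the miRNA of the cholesterol regulator Srebf2, was near the limit of detection. The 5p arm had 0, 3, 4 and 0 counts in vehicle replicates 1 to 4 and 1, 0, 0 and 1 in IL-1β replicates 1 to 4. The counts in the vehicle group came from its deepest libraries, replicates 2 and 3. In normalized CPM the highest value was 2.50 with vehicle, which stood for 4 counts in replicate 3, and 1.60 with IL-1β, which stood for 1 count in replicate 1. The ratio of IL-1β to vehicle from pooled counts (2 against 7) was 0.406, with a 95% counting interval of 0.0412 to 2.13. The edgeR log2 fold change of -1.10 (SE 1.12, 95% interval -3.41 to 1.22, adjusted p = 0.769) left the direction undetermined.

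The 3p arm of miR-33 had 2 counts in vehicle replicate 3, 2 counts in IL-1β replicate 2 and 0 in the other 6 libraries. It passed 1 CPM in 2 libraries, fewer than the 4 asked for, and was therefore not tested. The pooled ratio was 1.42, with a 95% counting interval of 0.103 to 19.6. Both arms together gave 13 counts in 8 libraries, and 3 libraries had none. Of these 13 counts, 9 were of the 5p arm (69.2%, 95% exact binomial interval 38.6% to 90.9%). The log2 ratio of 5p to 3p, with 0.5 added to each count, was 0.91 ± 1.32 with vehicle and 0.21 ± 1.85 with IL-1β (SD over 4 libraries, two-sided exact permutation p = 0.657, adjusted over 3 tests 0.943). With so few counts it rests largely on the added 0.5.

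**Figure D3:**
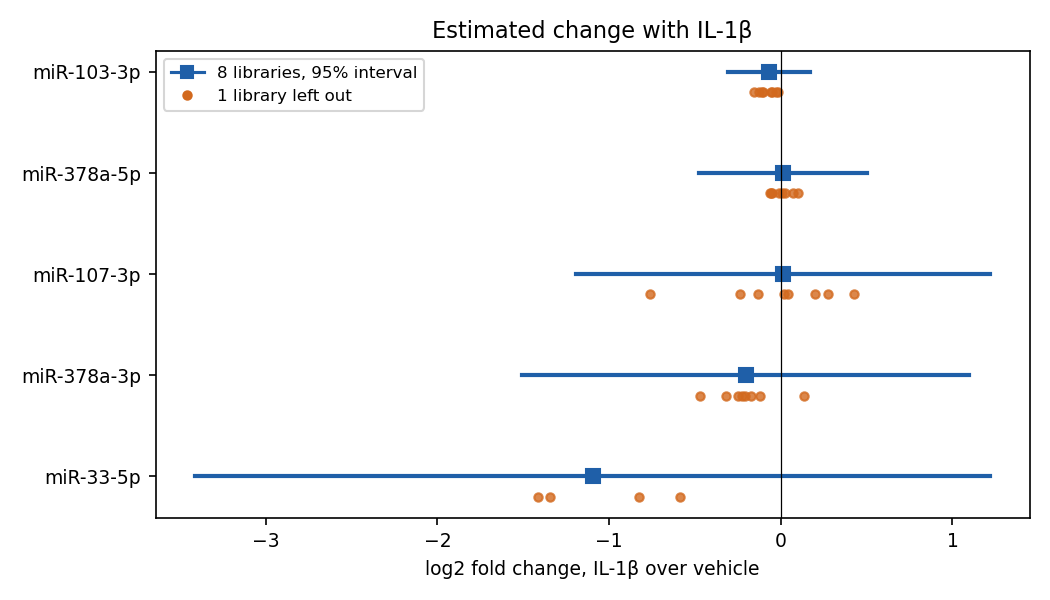
Log2 fold change of IL-1β over vehicle for the 5 miRNAs tested (squares, with 95% intervals from the edgeR fit) and the estimates when 1 library was left out (circles, where the miRNA still passed the filter). All 5 intervals include 0, and they widen from miR-103-3p to miR-33-5p.

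Of the 6 miRNAs, 5 passed the filter on low counts (over 1 CPM in at least 4 of the 8 libraries) and none of these was called, that is, past an adjusted p of 0.05 with an absolute log2 fold change over 0.3. The same fit called 1.95% of all tested miRNAs (11 of 564). Without IL-1β replicate 4, whose scaling factor of 0.932 lay apart from the 0.985 to 1.04 of the other libraries, 19 of 537 tested miRNAs were called, with 0 of the 4 tested from metabolic host genes, and the log2 fold changes of miR-103-3p and miR-378a-5p were -0.10 and 0.10. By edgeR 0 of the 5 had an unadjusted p under 0.05, against 11.2% of all tested, and 0 were called by DESeq2, against 1.24%. In 0 of the 5 were the groups of libraries free of overlap, against 7.62% of all tested. Counts of 0 among 5 are close to these shares and show nothing particular to these miRNAs. Their log2 fold changes had a median of -0.07, with 2 above and 3 below 0, and the median over all tested miRNAs was 0.0063.

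**Figure D4:**
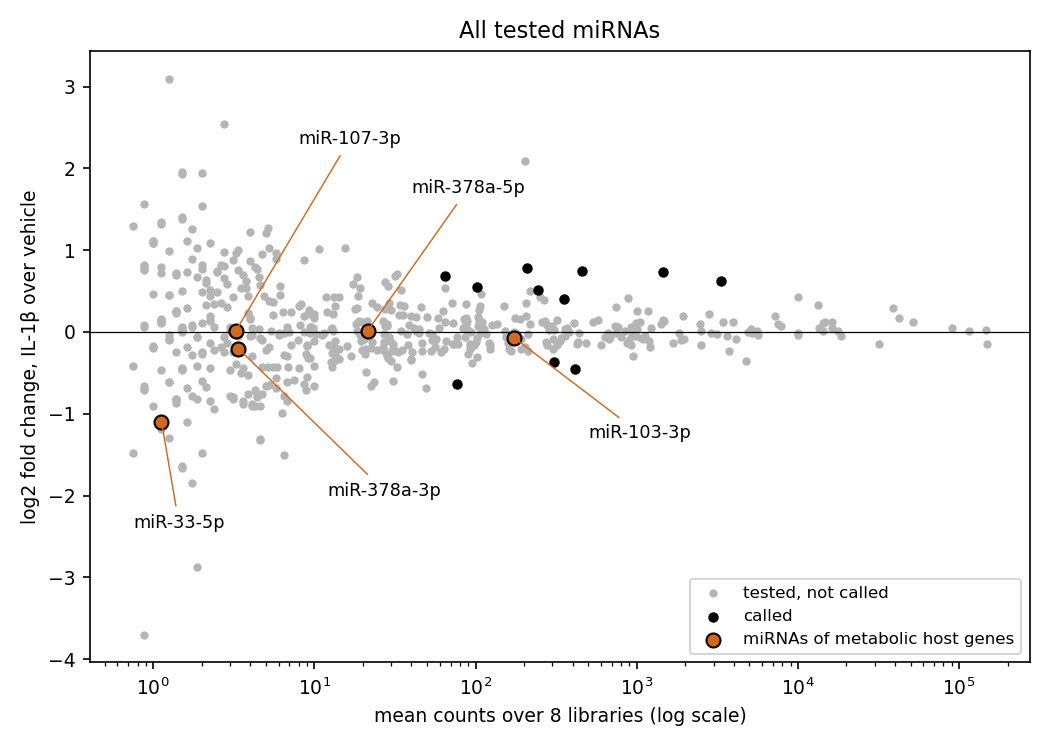
Log2 fold change of IL-1β over vehicle against mean counts (log axis) for the 564 miRNAs tested, with called miRNAs in black and the 5 tested miRNAs of metabolic host genes in orange. miR-103-3p and miR-378a-5p lie close to 0, and miR-107-3p, miR-378a-3p and miR-33-5p lie at the left, where estimates of all miRNAs scatter most.

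In mean normalized CPM the order was miR-103-3p, miR-378a-5p, miR-107-3p, miR-378a-3p, miR-33-5p and miR-33-3p. Ligation, amplification and the counting of reads with several placements may differ between these sequences, so it need not be the order of molecules. Over the 8 libraries miR-103-3p ranged from 146 to 194 normalized CPM and miR-378a-5p from 17.5 to 28.0, so these ranges did not overlap with each other or with those below. miR-107-3p and miR-378a-3p, with means of 3.12 and 3.08, were not distinguishable, as the former was higher in 3 of the 8 libraries. The ranges of miR-378a-3p and miR-33-5p overlapped, and so did those of both miR-33 arms.

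Among the 6 miRNAs, miR-103-3p alone had a mean of at least 50 counts, and its pattern over the 8 libraries was compared with those of the other 194 miRNAs at that level. Closest were miR-676-3p, miR-25-3p and miR-30e-3p, whose log2 values, centred on their own means, differed from those of miR-103-3p by a root mean square of 0.059, 0.080 and 0.080. The median over the 194 was 0.20. The 3 were picked as the smallest of these differences, and whether miR-103-3p shares a pattern with them beyond counting error was not tested. The SD of miR-103-3p over all 8 libraries was 0.14 on the log2 scale, and 81 of the 195 miRNAs had a smaller one.

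A wider set of 30 miRNAs known from lipid, insulin or mitochondrial metabolism was examined in the same fit. The set was put together with earlier results of these data known. Of the 30, 23 were tested, 0 were called by edgeR in either direction, against 1.95% of all tested miRNAs, and 0 by DESeq2, against 1.24%. An unadjusted edgeR p under 0.05 was found for 2 of the 23, against 11.2% of all tested. These counts are close to the shares over all miRNAs and show nothing particular to the set. The median log2 fold change of the 23 was -0.0059, against 0.0063 over all tested. The muscle and brown fat regulators miR-133a-3p and miR-133b-3p and the liver miRNA miR-122-5p were among 6 that had 0 counts in all libraries.

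In the group of cholesterol and lipid regulators, 10 of 14 were tested. The most abundant were miR-27b-3p, at 7680 ± 127 normalized CPM with vehicle and 8106 ± 1495 with IL-1β (SD over 4 libraries, change of 0.078 in log2, edgeR adjusted p = 0.807), and miR-148a-3p, which is known to repress the LDL receptor, at 5658 ± 381 and 5529 ± 254 (change of -0.034 in log2, adjusted p = 0.923). In the insulin and glucose group 7 of 8 were tested. Its most abundant were miR-26a-5p, at 10134 ± 233 and 10021 ± 1396 normalized CPM (SD over 4 libraries, change of -0.016 in log2, edgeR adjusted p = 0.992), and miR-29a-3p, at 751 ± 54.6 and 785 ± 105 (change of 0.060 in log2, adjusted p = 0.871). miR-26b-5p, named after its values were seen, was at 223 ± 21.4 and 191 ± 9.66 (log2 fold change -0.23, edgeR unadjusted p = 0.0362, adjusted p = 0.372).

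In the group of brown fat and mitochondrial regulators 6 of 8 were tested. miR-193b-3p, which is known to favor brown fat differentiation, was at 1042 ± 104 normalized CPM with vehicle and 850 ± 19.3 after IL-1β (SD, n = 4), and all 4 IL-1β libraries lay below all vehicle libraries. Its log2 fold change was -0.29 (SE 0.0871, edgeR unadjusted p = 0.00284), with an adjusted p of 0.0843, and missed both thresholds of a call. It was the 1 of the 23 tested whose groups did not overlap, against 7.62% of all tested miRNAs. The other abundant member, miR-196a-5p, was at 752 ± 39.3 and 780 ± 95.5 normalized CPM (SD over 4 libraries, change of 0.055 in log2, edgeR adjusted p = 0.871).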

How the data were processed

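Small RNA libraries of vehicle-treated (n = 4) and IL-1β-treated (n = 4) chondrocytes were grouped by their sample labels. The deposited table held whole numbers per mature miRNA, which were treated as raw counts. According to the methods of the study, the authors trimmed reads with cutadapt, aligned them to mm10 with STAR and counted them with featureCounts (Subread). The submitters' processing notes gave STAR 2.4.2a, whereas the methods named another version, so that the one used is uncertain. The authors also described a batch correction, and the counts were taken to precede it. Every deposited value was a whole number and library totals differed, but corrected counts can share both traits. Whether the values were corrected is therefore uncertain. STAR with default settings was designed for longer reads, so short or repetitive reads may be missing. The table also listed a length per name. Names were in the style of miRBase, whose release was not given in the sources used here.

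Counts were tested with edgeR 4.0.16 (quasi-likelihood, robust, two-sided) in R 4.3.3, with TMM scaling (factors 0.932 to 1.04) and group as the only term, over 564 miRNAs above 1 CPM in at least 4 libraries. Calls required a Benjamini-Hochberg adjusted p under 0.05 and an absolute log2 fold change over 0.3. The SE was the size of the log2 fold change divided by the square root of F, and 95% intervals used the t distribution. Shares and arm ratios were compared by exact permutation over 70 arrangements, with a smallest two-sided p of 0.0286. Binomial (Clopper-Pearson) and counting intervals cover counting error only, as do the limits for 0 counts, since no molecular identifiers were described. Alternatives were other scaling, other filters, DESeq2 1.42.0, a replicate block, a factor of unwanted variation and leaving out each library. Named miRNAs were the 6 of metabolic host genes, their relatives, miRNAs with the seed of miR-103-3p or of miR-15a-5p, the 2 most abundant and any called of each metabolic group, and the 3 closest in pattern to miR-103-3p. Others were named after their values were seen, as stated beside them. The 6 miRNAs and the lists were chosen with earlier results of these data known.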

Additional observations from a re-analysis of the deposited data

Results flagged for a closer look

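Of 18 groups of 4 libraries examined for the 6 miRNAs and their ratios, 4 held a library far from the other 3. For continuous values chance flags about 1 in 20 groups, a rate that does not hold for counts this low, where a group with counts in a single library always stands out. For miR-33-3p these were vehicle replicate 3 (1.25 normalized CPM) and IL-1β replicate 2 (1.69 normalized CPM), each with 2 counts against 0 in the other 3 libraries of its group. For the arms of miR-378a they were vehicle replicate 4, with a log2(3p/5p) of -5.21 from 0 and 18 counts, and IL-1β replicate 4, with -2.05 from 3 and 14 counts. The binomial intervals of the 3p share in these last libraries, 0% to 18.5% and 3.80% to 43.4%, overlapped those of every other library.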

How the results depend on the processing

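In the 15 alternatives 0 of the miRNAs of metabolic host genes that could be tested were called (6 with no filter, 2 with a mean of at least 10 counts, 4 or 5 in the others), nor were any tested ones of the metabolic set, and the change of miR-103-3p stayed between -0.16 and -0.015. Estimates close to 0 changed sign. For miR-107-3p the log2 fold change was -0.0038 with library totals only, -0.013 with no filter, -0.066 with DESeq2, -0.0057 with the replicate block and -0.19 with a factor of unwanted variation, and it ranged from -0.76 to 0.43 when single libraries were left out. For miR-378a-5p it was -0.0083, -0.0044 and -0.0018 with library totals only, no filter and the factor, and ranged from -0.060 to 0.10 without single libraries. For miR-378a-3p and miR-33-5p the latter ranges were -0.47 to 0.13 and -1.42 to -0.59, where miR-33-5p passed the filter in 4 of the 8 fits. The difference in the share of miR-103-3p was -0.308 percentage points with 2 added to each count and ranged from -0.603 to 0.724 without single libraries. The arm ratios ranged from -0.39 to 0.72 (miR-378a) and from -1.16 to 0.14 (miR-33). Calls over all miRNAs numbered 7 with DESeq2, 28 with the factor and 6 to 19 without single libraries. Replicate numbers are not stated to pair libraries, and deviations of same-numbered libraries correlated between -0.34 and 0.17. With the replicate block 19 miRNAs were called. For miR-107-3p, miR-378a-3p and miR-33-5p, with 26, 27 and 9 counts in all, the 95% intervals included changes of 2-fold, and miR-33-3p, with 4 counts, was not tested.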

Other observations

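The opening bases of miR-103-3p are those of another metabolic and cell cycle family in a shifted frame. Its bases 1 to 7, AGCAGCA, are bases 2 to 8 of miR-15a-5p, so that the seeds of both families differ by a shift of 1 base. RefSeq held 10 mouse miRNAs with the seed of miR-15a-5p, and 6 of them were tested. In sum these 6 were at 1485 ± 126 normalized CPM with vehicle and 1405 ± 104 after IL-1β (SD over 4 libraries), and the pair of miR-103-3p and miR-107-3p at 179 ± 14.6 and 172 ± 18.6. miR-16-5p held most of the former, at 1114 ± 112 and 1048 ± 84.7 normalized CPM (log2 fold change -0.090, edgeR adjusted p = 0.760). By edgeR 0 of the 6 were called, against 1.95% of all tested miRNAs, and 1 had an unadjusted p under 0.05, against 11.2%, so that these counts show nothing particular to the family. The one was miR-195a-5p, named after its values were seen, at 5.48 ± 3.59 and 11.0 ± 4.63 normalized CPM (SD over 4 libraries, change of 0.88 in log2, SE 0.420, edgeR adjusted p = 0.427).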
